A study of Mus musculus with 30 samples.

Results

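The 56 genes described here were chosen because, in the value table deposited by the authors, both skin and stomach had a higher mean level than each of 11 other adult mouse tissues. In that table each of 25030 probes (short DNA strands that each read 1 transcript) has a log10 level on every array. For each probe the gap was taken between the lower of the skin and stomach means and the highest mean of the other tissues, with eyes and bladder set aside. The 60 probes with the largest gap among the 5621 that could be given a gene symbol were kept, and 4 genes (Krt10, 2200001I15Rik, Serpinb2 and Serpinb3c) were left out. The genes were therefore chosen by this gap in the authors' log10 values, and the height of skin and stomach over the 11 other tissues is given only as a description.

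Expression was measured in C57BL/6 males, 28 weeks old by the labels, with no treatment or mutation and 2 arrays per tissue. The other tissues were brain cortex, cerebellum, lung, liver, heart, kidney, skeletal muscle, small intestine, large intestine, fat and bone. Each array held 2 dyes, Cy3 for the RNA of the tissue and Cy5 for a reference that was the same on all 30 arrays, made of pooled cell line RNA to which RNA of embryonic stem cells was added. A value is log2(Cy3/Cy5), so that 0 means the same signal as in the reference and 1 means 2 times as much. The replicates came from different animals, except that the series description gives bone and fat only 1 replication although each has 2 arrays.

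Stratified squamous epithelium is the layered covering of the skin and, in the mouse, also lines the forestomach. Its basal cells are anchored to the lamina below by hemidesmosomes and to each other by desmosomes, and its upper cells build a cornified envelope of cross-linked proteins with lipids between the cells. Clade B serpins are protease inhibitors that act inside cells, and many of them are made in such epithelia. In whole tissue, fewer cells of a type and less RNA per cell cannot be told apart.

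Gaps ran from 1.94 on the log10 scale (87.6-fold) for 2310002J15Rik, now Cysrt1, down to 0.04 (1.09-fold), with a median of 1.62-fold. Cysrt1, Lce1a2, Lce6a (2210420J11Rik in the probe lists), Sprr1a, Abca12, Nipal4 (9530066K23Rik), Pkp1, Dst and 7 clade B serpins, named here by hand for their known place in epidermis, were among the 28 largest gaps, an order that the rule itself made. Further down came genes used by most cells, such as the ribosomal protein genes Rpl31 and Rpl3, the helicase gene Smarca4 and the translation factor gene Eif3g, and also Pdc, a gene of retinal photoreceptors. The last 3 inside the limit were Pitpnm2os1 (4930568K20Rik), Hsbp1l1 (1810005K13Rik) and Btbd19 (9530048O09Rik), with gaps of 0.0398, 0.0387 and 0.0358, and the first 3 named probes outside it were 5730601F06Rik, Npbwr1 and 4930557J02Rik, with 0.0344, 0.031 and 0.0242. The ratio to the reference was normalised anew but from the same arrays that chose the genes, so it checks nothing. In it the gap was above 0 for 51 of the 56 genes and at least 1 (log2) for 23. For 1700016D18Rik, 2310057J18Rik, 4930533B18Rik, Pitpnm2os1 and Hsbp1l1 it was not above 0. In the Cy3 channel alone the gap was above 0 for 45 genes, at least 1 for 20 and not above 0 for 11.

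**Figure D1:**
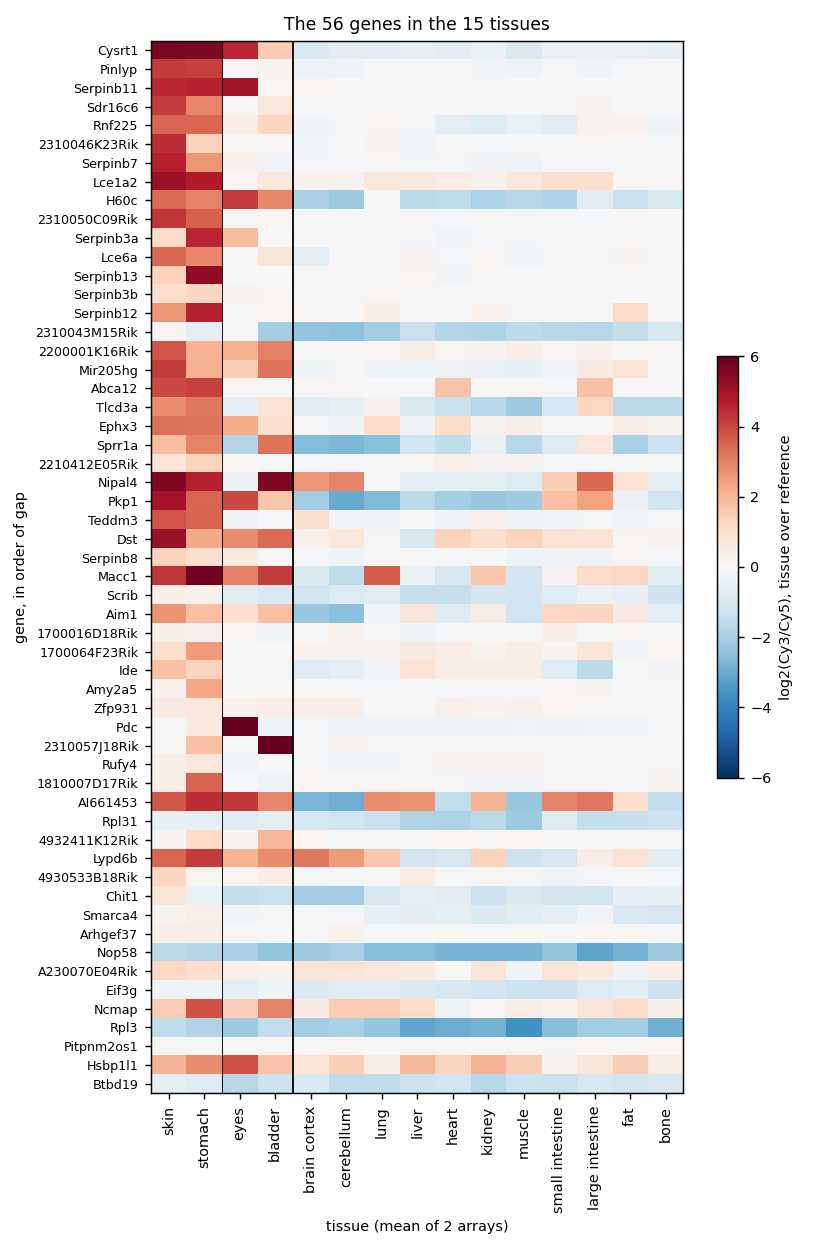
Heatmap of the 56 genes (rows, in order of the gap that chose them) in the 15 tissues (columns), coloured by the mean log2(Cy3/Cy5) of 2 arrays. The upper rows are red in skin and stomach and pale or blue in the 11 tissues right of the thick line, with exceptions such as Nipal4 and Macc1, whereas many lower rows differ little between tissues.

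The symbols came from incomplete lists of probes, so the genes are a sample of the pattern: 328 probes of the table had a gap at least as large as the smallest one here, and 268 of those had no symbol. Of the 56 symbols, 28 were current in the RefSeq annotation of GRCm38.p6, 21 matched a current gene as an older name, 1 (Aim1) matched several genes and keeps its name here, and 6 had no match. Chromosome 1 carried 16 of the 49 genes placed on the annotation (32.7%), against 20.1% of the 5147 named probes that could be placed. Serpinb12, Serpinb13, Serpinb3a, Serpinb3b, Serpinb11, Serpinb7 and Serpinb8 lie there in this order with at most 2 coding genes between neighbours. On chromosome 3, where the genes of the cornified envelope lie together, Sprr1a, Lce6a and Lce1a2 were separated by 3 and 2 coding genes.

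Serpinb3a and Serpinb3b are close copies of each other, and a probe for one may bind RNA of the other, so their levels are uncertain. The 60-base probes for these genes and for Serpinb8 are shown because the levels given for these serpins rest on them. Each has a reading frame without a stop codon, and the files place none of them on the genome.
Serpinb3a: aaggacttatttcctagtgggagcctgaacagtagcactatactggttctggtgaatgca
Serpinb3b: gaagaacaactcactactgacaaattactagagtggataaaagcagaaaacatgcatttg
Serpinb8: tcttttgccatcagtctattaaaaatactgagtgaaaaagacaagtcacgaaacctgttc
Slid along each other without gaps, the Serpinb3a and Serpinb3b probes had identical bases at no more than 24 of 52 positions. The probes for Serpinb11 and Serpinb8 had 26 of 60. A probe was not compared with the transcript of the other gene, so these counts do not show whether it binds that RNA.

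A promoter sequence (RefSeq, GRCm38.p6) was found for 41 of the genes, and the 250 bases before the start were searched on both strands. TGANTCA, the site bound by AP-1 factors, which are active in keratinocytes, was found in 9 of the 41 (21.95%) and in 6.75% of all 32851 promoters of the table. These 9 belonged to Cysrt1, Serpinb11, Serpinb7, Serpinb12, Sprr1a, Serpinb8, Macc1 (4732474O15Rik), Rufy4 and Chit1. The serpins among them are related genes of the same cluster, so the matches are not independent. Each of the 41 genes had 1 promoter, whereas the 32851 were not reduced to 1 for each gene, so the shares are not counted alike. TATAAA was found in 10 (24.4%, against 12.4% of all promoters), CACCC in 25 (61.0% against 52.0%), GCCNNNGGC, an AP-2 site, in 3 (7.32% against 13.7%) and AACCNGGTT, a Grhl site, in 1 (2.44% against 0.24%). The promoters of Nipal4 and Dst had no TGANTCA. Shown are 4 of the 9 with a TGANTCA match, to let its place be seen, with TGANTCA and TATAAA in capitals. In Sprr1a and Cysrt1 an AP-1 match overlaps a CACCC match.
Cysrt1, chr2:25239898-25240147, minus strand: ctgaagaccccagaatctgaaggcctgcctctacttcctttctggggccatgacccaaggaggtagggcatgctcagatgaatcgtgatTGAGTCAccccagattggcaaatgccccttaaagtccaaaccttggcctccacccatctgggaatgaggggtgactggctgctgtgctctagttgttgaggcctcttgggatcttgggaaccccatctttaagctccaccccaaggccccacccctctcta
Sprr1a, chr3:92485882-92486131, minus strand: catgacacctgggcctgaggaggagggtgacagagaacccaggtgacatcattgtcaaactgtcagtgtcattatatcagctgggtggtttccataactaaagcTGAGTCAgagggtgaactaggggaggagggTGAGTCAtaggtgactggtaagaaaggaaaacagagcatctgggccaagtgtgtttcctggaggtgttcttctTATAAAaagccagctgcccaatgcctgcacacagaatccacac
Serpinb11, chr1:107362064-107362313, plus strand: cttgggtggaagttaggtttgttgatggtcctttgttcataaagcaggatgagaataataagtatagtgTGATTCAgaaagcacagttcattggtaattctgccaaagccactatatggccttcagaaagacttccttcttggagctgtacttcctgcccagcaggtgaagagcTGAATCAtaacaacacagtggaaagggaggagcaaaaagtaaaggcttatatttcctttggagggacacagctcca
Serpinb12, chr1:106934199-106934448, plus strand: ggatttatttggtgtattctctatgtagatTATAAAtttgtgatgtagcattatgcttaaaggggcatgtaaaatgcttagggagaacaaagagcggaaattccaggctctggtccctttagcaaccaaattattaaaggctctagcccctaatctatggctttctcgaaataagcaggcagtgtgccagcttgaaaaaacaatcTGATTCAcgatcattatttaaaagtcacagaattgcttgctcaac

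The 2 skin arrays were not alike in what they held beside epidermis. Of 9 probes for keratin-associated protein genes, which are made in hair, Krtap22-2 (1110032D16Rik) had 0.17 and 6.56 in skin, Krtap9-3 (2310040M23Rik) 0.20 and 5.27, and the mean over the 9 was 0.26 and 2.97. The mean over 5 skeletal muscle genes was 2.48 and 4.72, and Mstn, which muscle cells secrete, had 2.92 and 6.62. Among the keratinocyte markers, Serpinb5, which is not one of the 56, had 4.37 and 4.19 in skin and 3.21 and 3.24 in stomach. Pkp1, Sprr1a and Krt10 are also such markers, but the rule selected for their height in both tissues, so they check nothing. Of 2 genes listed for the glandular stomach, Gkn3 (1190003M12Rik) had 4.62 and 4.29 in stomach and 1.61 and 0.67 in skin, whereas Mfsd4a (Mfsd4) had 0.92 and 0.90 in stomach and 2.90 on 1 brain cortex array. The defining genes of urothelium and cornea had no probe with a symbol. The part of muscle and hair in the skin values was not tested.

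The Cy5 channel, which held the same reference on every array, was not level for the brightest of these genes. For Serpinb12 the raw Cy5 signal was 2915 and 4239 scanner units in stomach, where Cy3 was 19261 and 29553, but 96.1 and 103 in skin, where Cy3 was 285 and 355, and it had a median of 63.0 over the 22 arrays of the 11 other tissues. For 2310050C09Rik Cy5 was 6384 and 5511 in skin and 1175 and 2068 in stomach against a median of 70.9. Cy5 of both skin arrays exceeded that of all 22 other arrays for 25 of the 56 genes, against 1.97% of all 21026 probes tested, and that of both stomach arrays for 23, against 2.14%. A ratio divided by such a Cy5 signal is smaller than the difference in Cy3, so the calls of each comparison below are also counted for the Cy3 channel alone, with its values for the genes where it differs most. The cause was not tested.

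**Figure D2:**
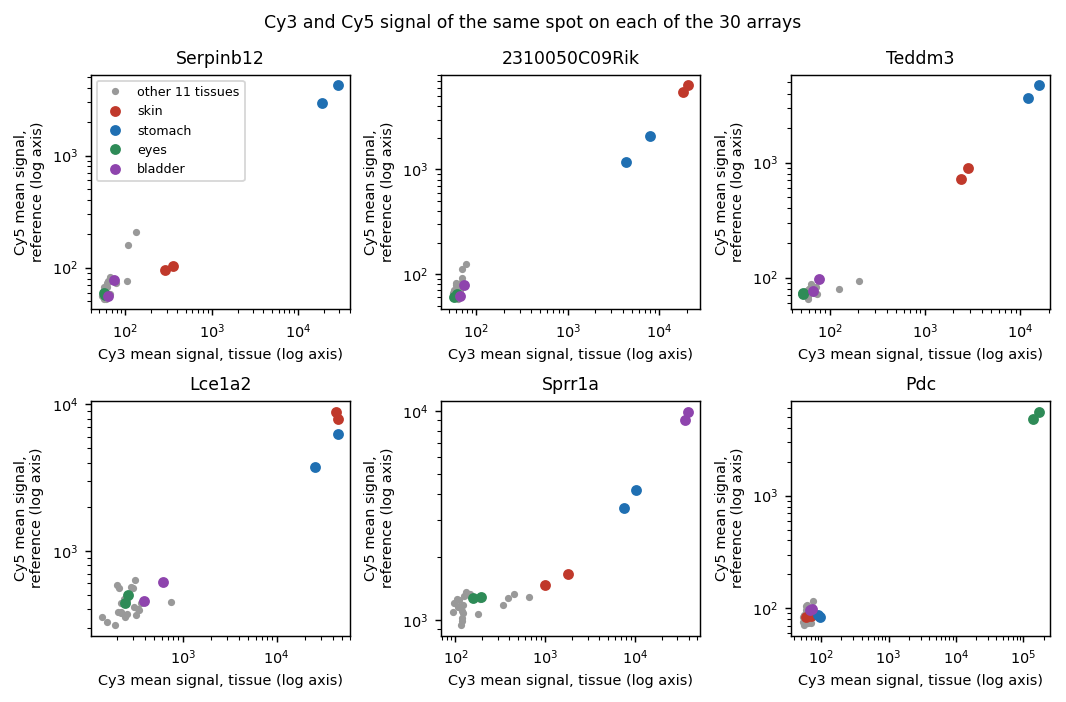
Raw Cy3 signal of the tissue (x axis, log scale, scanner units) against raw Cy5 signal of the reference (y axis, log scale, scanner units) of the same spot for 6 of the genes, 1 point for each of the 30 arrays. Arrays with little Cy3 signal share a low Cy5 signal, and the arrays bright in Cy3 are also bright in Cy5, as the stomach arrays for Serpinb12 (2915 and 4239 units) and the eye arrays for Pdc (4775 and 5603 units).

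The 3 genes of the cornified envelope and Cysrt1 were higher in skin and stomach than in the 11 other tissues, and some were also high in eyes or bladder. Cysrt1, a cysteine-rich protein that is listed here beside them, had 5.82 and 5.49 in skin and 5.68 and 5.54 in stomach, and from -1.07 to -0.17 (median -0.56) on the 22 arrays of the 11 other tissues. Lce1a2, a late cornified envelope protein, had 5.19 and 5.16 in skin, 4.74 and 4.77 in stomach and between 0.08 and 1.31 (median 0.37) on those 22 arrays. Lce6a of the same family had 3.46 and 3.45 in skin, 2.68 and 3.13 in stomach and no more than 0.37 on those 22 arrays, with 0.40 and 1.00 in bladder. For these 3 genes no array of the other 11 tissues reached a skin or stomach array. Sprr1a, a small proline-rich envelope protein, had 1.57 and 2.13 in skin and 2.97 and 3.02 in stomach, with large intestine nearest among the 11 tissues at 0.18 and 1.19 and bladder above all of these at 3.24 and 3.26.

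Abca12, which loads lipids for the outer layers and is defective in harlequin ichthyosis, had 3.85 and 4.11 in skin and 3.82 and 4.37 in stomach, with 2.83 and 0.68 on the large intestine arrays. Nipal4, another gene of inherited ichthyosis, had 5.67 and 5.41 in skin and 4.63 and 4.68 in stomach, with 2.95 and 3.91 in large intestine and 5.43 and 5.75 in bladder. Ephx3 (Abhd9), an epoxide hydrolase, had 3.41 and 3.19 in skin and 3.19 and 3.37 in stomach and at most 1.40 on the 22 arrays, with 2.57 and 1.92 in eyes. The values of skin and stomach overlapped for Abca12 and Ephx3, and the 2 large intestine arrays, which were the least alike of any tissue (r = 0.67 across probes, against a median of 0.98), were far apart for Abca12.

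For adhesion, Pkp1, a plaque protein of desmosomes, had 5.15 and 4.85 in skin and 3.41 and 3.58 in stomach, with 2.78 as the highest of the other 22 arrays. Dst, which links keratin filaments to hemidesmosomes and has other forms in muscle and nerve, had 5.33 and 4.98 in skin and 2.14 and 2.44 in stomach, with at most 1.66 on the 22 arrays, but 3.28 and 2.43 in eyes and 3.35 and 3.42 in bladder. Among the genes of less certain role near the top, Pinlyp (2310033E01Rik) had 3.19 and 5.22 in skin and 3.97 and 4.23 in stomach, Sdr16c6 (4833413O15Rik), a short-chain dehydrogenase, 4.36 and 4.01 and then 2.78 and 3.07, and Rnf225 (2310014L17Rik), a RING finger protein, 3.63 and 3.39 and then 3.36 and 3.56. 2310046K23Rik had 4.49 and 4.38 in skin and 1.40 and 1.36 in stomach, and 2310050C09Rik 4.47 and 4.14 and then 3.60 and 3.57. None of these 5 exceeded 0.59 on any of the 22 other arrays. H60c (4632413I24Rik), a ligand of the NKG2D receptor of lymphocytes, had 3.60 and 3.19 in skin and 2.67 and 3.24 in stomach and at most 0.18 on the 22 arrays, but 4.55 and 3.82 in eyes and 3.08 and 2.64 in bladder.

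**Figure D3:**
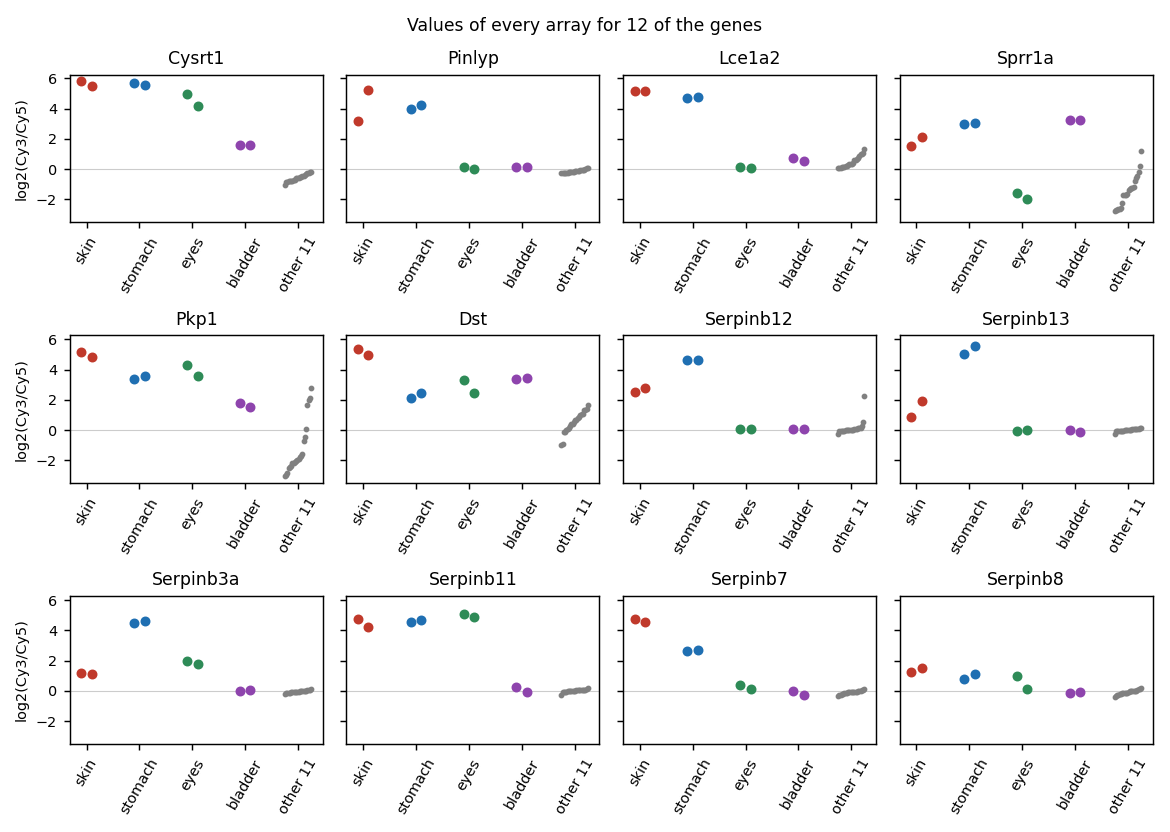
Values of single arrays, log2(Cy3/Cy5), for 12 of the genes, with 2 points each for skin, stomach, eyes and bladder and 22 grey points, sorted by value, for the other 11 tissues. All skin and stomach points lie above the grey points of the same gene, with the smallest distance for Serpinb12, where 1 fat array had 2.28 and the skin arrays 2.53 and 2.81, and the genes differ in whether eyes and bladder join them.

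Whether skin or stomach carried more was not fixed by the rule, which took the lower of the 2. Over all 21026 probes tested with limma, 9.78% were called higher in skin and 9.6% higher in stomach, a call being a Benjamini-Hochberg adjusted p under 0.05 and a log2 difference of at least 1. Of the 55 genes tested, 9 were called higher in skin and 9 higher in stomach, and 37 were not called, so that 32.7% were called in either direction, against 19.4% of all probes. The median size of the log2 difference was 0.62 for these genes and 0.39 over all probes, and the signed medians were 0.07 and 0.03. Pitpnm2os1 was not well above background on both arrays of any tissue and was not tested.

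In the ratio the clade B serpins divided between the tissues although they are neighbours, with Serpinb7 alone called higher in skin. Serpinb13 had 0.88 and 1.90 in skin and 5.03 and 5.58 in stomach, a difference of -3.92 ± 0.22 (SE, n = 2 arrays each, limma adjusted p = 1.8e-10). Serpinb3a had 1.17 and 1.10 in skin and 4.51 and 4.65 in stomach, and Serpinb12 2.53 and 2.81 in skin and 4.61 and 4.62 in stomach. Both were called higher in stomach, by -3.45 ± 0.12 (SE, limma adjusted p = 1e-13) and -1.95 ± 0.40 (SE, limma adjusted p = 0.00095), and in the Cy3 channel alone Serpinb12 differed by -6.07 ± 0.30, which is 67.0-fold. From the scanner's own processed signals and from the authors' table, however, the difference of Serpinb12 turned to 0.15 and was not called. Serpinb7 went the other way, with 4.75 and 4.55 in skin and 2.61 and 2.72 in stomach, a difference of 1.99 ± 0.16 (SE, limma adjusted p = 1.5e-08), which was 0.17 and not called with the processed signals and the table. Serpinb11 had 4.79 and 4.24 in skin and 4.57 and 4.68 in stomach, a difference of -0.11 with a 95% interval from -0.44 to 0.21. Serpinb8, at -0.01 to 0.87, and Serpinb3b, at -0.50 to 0.03, had 95% intervals of the ratio that include 0. Their signal was low. Cy3 of Serpinb8 was 166 and 171 units in skin and 113 and 132 in stomach, against a median of 67.4 on the 22 other arrays. Cy3 of Serpinb3b was 99.1 and 91.4 and then 105 and 116, against 57.2. So near background the intervals do not exclude a larger difference in RNA. Of all 12 probes for clade B serpins, 11 were tested, 1 was called higher in skin and 4 higher in stomach.

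The other 8 genes higher in skin included Dst and Pkp1. 2310046K23Rik differed by 3.06 ± 0.13 (SE, limma adjusted p = 3e-12), Dst by 2.86 ± 0.33 (adjusted p = 1.8e-06) and Mir205hg (4631405K08Rik), the host transcript of miR-205, by 2.07 ± 0.41 (adjusted p = 0.00071), with 4.27 and 4.08 in skin and 1.94 and 2.29 in stomach. 2200001K16Rik, with 3.86 and 3.68 in skin and 1.89 and 2.24 in stomach, differed by 1.71 ± 0.16 (limma adjusted p = 1.3e-07), Pkp1 by 1.50 ± 0.38 (adjusted p = 0.0055) and Sdr16c6 by 1.26 ± 0.14 (adjusted p = 1.6e-06). For each of these the skin arrays did not overlap the stomach arrays. With the processed signals and the authors' table all of them but Dst lost their call: Sdr16c6 turned to -0.0314 and -0.0316, 2310046K23Rik fell to 0.63, 2200001K16Rik to 0.33, and Mir205hg and Pkp1 kept 1.88 and 1.46 with limma adjusted p of 0.071 or more and 0.0674 or more. Pkp1 was also not called without skin replicate 1 (limma adjusted p = 0.0555) or with slide as a random block (limma adjusted p = 0.0789), and median centring in place of loess moved it furthest, to 0.64 (limma adjusted p = 0.333). 4930533B18Rik, with 0.89 and 1.63 in skin, was not well above background in stomach, so the size of its difference is uncertain (limma adjusted p of the ratio = 0.00017). Against its own stomach signal, Cy3 after loess and Aquantile was 2.15-fold higher over both skin arrays and 1.58-fold with the dimmer one alone. In the Cy3 channel alone, normalised by quantiles, the log2 difference was 0.94 and was not called. The ratio was not called without skin replicate 2. The remaining call was Chit1, a chitinase of macrophages, at 1.14 ± 0.26 (adjusted p = 0.0023), which was 0.99 without stomach replicate 1.

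In stomach 6 genes were called beside the serpins. 1810007D17Rik, a long noncoding RNA by RefSeq, had 0.70 and 0.00 in skin and 3.64 and 3.46 in stomach, a difference of -3.20 ± 0.18 (SE, limma adjusted p = 1.3e-10). Skin replicate 2 was not well above background for it, so the size of this difference is uncertain. Ncmap (A330049M08Rik), a protein of myelin, differed by -2.29 ± 0.46 (adjusted p = 0.00086), with 1.57 and 1.49 in skin and 4.02 and 3.62 in stomach, and was not called with the processed signals or the table (-1.67). Amy2a5 (1810008N23Rik), an amylase of the pancreas, had 0.37 and 0.10 in skin and 2.50 and 2.01 in stomach. Its probe was above background on both arrays of no tissue but stomach. It was therefore tested only through the tissue where it was high, and its call is not read. Sprr1a differed by -1.15 ± 0.39 (limma adjusted p = 0.033) and was not called without skin replicate 1, stomach replicate 1 or stomach replicate 2, with limma adjusted p of 0.249, 0.106 and 0.132, or with slide as a block, which moved the difference to -0.87 as a random block (limma adjusted p = 0.115) and to -0.33 as a fixed block (limma adjusted p = 0.489). The last calls were 1700064F23Rik, another noncoding RNA, at -1.53 ± 0.33 (adjusted p = 0.0015), and 4932411K12Rik at -1.01 ± 0.13 (adjusted p = 1e-05), which was not well above background on skin replicate 2. Without skin replicate 2 both were under the limit of 1, at -0.97 and -0.88, and the second was so also without stomach replicate 1 and with slide as a block.

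The Cy3 channel alone gave the same call for 16 of these 18 genes, dropped 4930533B18Rik and 4932411K12Rik, and added 7, which made 12 higher in skin and 11 higher in stomach where 8.82% and 9.3% of all probes were. Added as higher in skin were 2310050C09Rik, at 2.53 ± 0.21 (SE, limma adjusted p = 3.8e-08) against 0.73 in the ratio, Lce6a at 1.27 ± 0.21 (adjusted p = 0.00014), Nipal4 at 1.15 ± 0.32 (adjusted p = 0.012) and Lce1a2 at 1.04 ± 0.26 (adjusted p = 0.0049). Added as higher in stomach were Macc1 at -2.02 ± 0.56 (limma adjusted p = 0.011), Teddm3 (2310042E22Rik) at -1.84 ± 0.16 (adjusted p = 3.8e-08) and Lypd6b (2310010M24Rik) at -1.02 ± 0.24 (adjusted p = 0.0033). Teddm3 had 3.84 and 3.68 in skin and 3.59 and 3.48 in stomach as ratios, but its Cy3 signal was 2810 and 2402 units in skin and 12057 and 15696 in stomach, and its Cy5 signal 902 and 715 and then 3654 and 4725. In contrast, Cysrt1, Pinlyp, Rnf225, Serpinb11, Abca12 and Ephx3 were called in neither measure. The signal processed by the scanner software and the authors' table, which is adjusted for Cy5, called 3 genes higher in skin and 10 and 9 higher in stomach, against 9 and 9 here, and median centring in place of loess called 4 and 10. Under median centring 2200001K16Rik, Sdr16c6, Chit1 and 4932411K12Rik lost their call beside Pkp1, at 0.92, 0.72, 0.83 and -0.62, as did 4930533B18Rik.

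**Figure D4:**
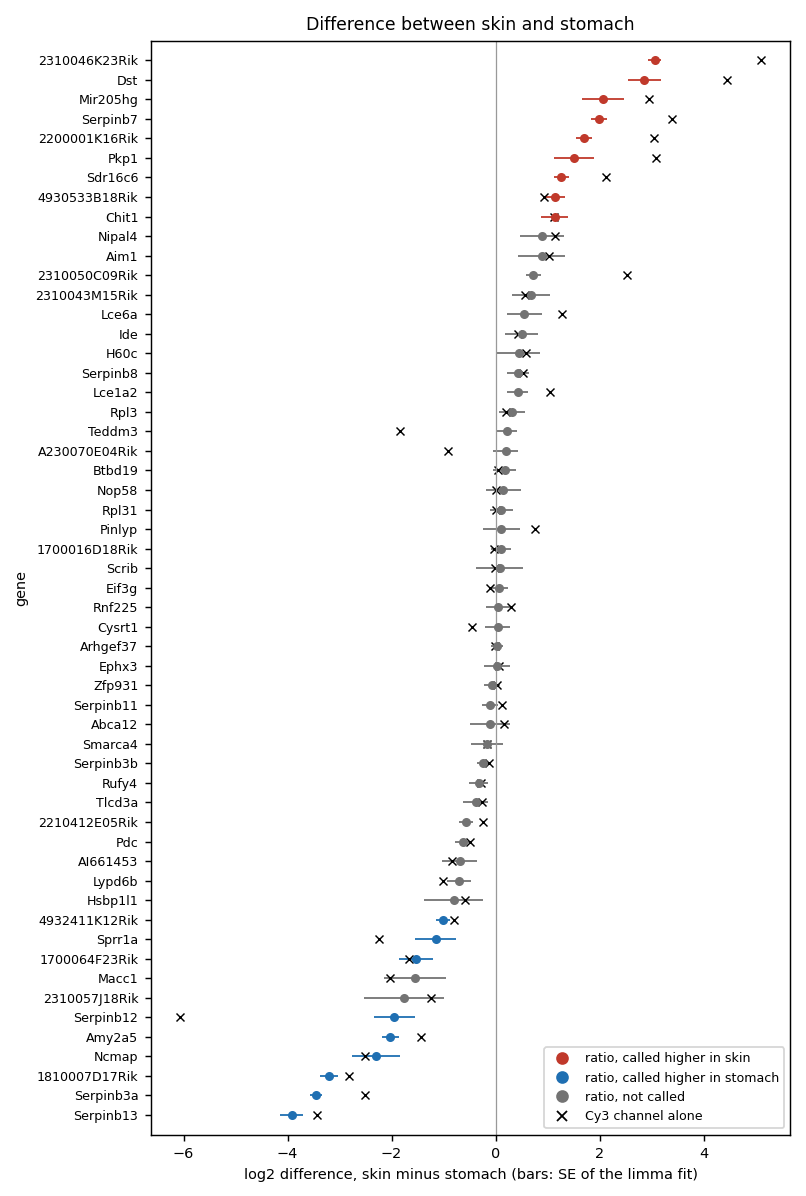
Difference between skin and stomach (x axis, log2) for the 55 genes tested (y axis, sorted), with circles and SE bars for the ratio, red where called higher in skin, blue where called higher in stomach and grey where not called, and crosses for the Cy3 channel alone. Crosses lie farther from 0 than circles for bright genes such as Serpinb12 (-6.07 against -1.95), Dst (4.44 against 2.86) and 2310046K23Rik (5.11 against 3.06), and on the other side of 0 for Teddm3 (-1.84 against 0.22).

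Eyes and bladder were not used to choose the genes. As organs both have epithelia of their own, the squamous covering of the cornea and the urothelium, whose markers could not be read here. Both eye arrays stood above all 22 arrays of the 11 other tissues for 12 of the 56 genes and both bladder arrays for 18, and 4 genes (Cysrt1, H60c, 2200001K16Rik and Dst) had both, while 30 had neither. For skin this held for 38 genes and for stomach for 42. Over all probes these shares were 4.18% for skin, 3.32% for stomach, 5.39% for eyes, 3.32% for bladder and 0.694% for eyes and bladder together, but the rule had already kept the genes low in the 11 tissues, so nothing is read from the counts. Pinlyp, Lce1a2, 2310050C09Rik, Serpinb12, Serpinb13 and Abca12 had no more than 0.76 on any eye or bladder array, against at least 0.88 on every skin and stomach array.

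Between eyes and bladder, 12.9% of all 21025 probes with a value were called higher in eyes and 8.84% higher in bladder. Of the 55 genes, 10 were called higher in eyes, 7 higher in bladder and 38 were not called, so that 30.9% were called in either direction, against 21.8% of all probes. The median size of the difference was 0.53 against 0.43 over all probes. The eye arrays shared 1 slide and the bladder arrays another. With slide as a random block 7 and 5 calls remained, and H60c, Ephx3, AI661453, Mir205hg and Ncmap were not called, with limma adjusted p of 0.083, 0.0664, 0.185, 0.0506 and 0.193. In the Cy3 channel alone all 17 calls held in the same direction, where 10.3% of all probes were higher in eyes and 10.1% higher in bladder, and 2200001K16Rik was added as higher in bladder at -2.07 ± 0.19 (SE, limma adjusted p = 8.6e-08).

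Among the 10 genes higher in eyes were Serpinb11, Cysrt1, Pkp1 and Serpinb3a. In this paragraph and the next ones an "at least" fold is of Cy3 and the p beside it is of the ratio. Serpinb11 had 5.10 and 4.90 in eyes but 0.26 and -0.04 in bladder, where it was not well above background, so that it was at least 68.4-fold higher in eyes (limma adjusted p = 1.5e-14), or 45.4-fold without the brighter eye array. Cysrt1 had 4.96 and 4.15 in eyes and 1.57 and 1.59 in bladder, a difference of 2.98 ± 0.24 (SE, limma adjusted p = 1e-08), and Pkp1 had 4.32 and 3.57 and then 1.78 and 1.52, a difference of 2.30 ± 0.38 (adjusted p = 0.00011). Serpinb3a, with 1.99 and 1.76 in eyes, was not well above background in bladder and was at least 2.50-fold higher in eyes (limma adjusted p = 4.1e-10). 2310043M15Rik, a noncoding RNA with 0.13 and -0.15 in eyes, was at least 3.90-fold higher there (adjusted p = 0.0002). H60c differed by 1.32 ± 0.42 (adjusted p = 0.020), Ephx3 by 1.29 ± 0.24 (adjusted p = 0.00035), AI661453 by 1.33 ± 0.33 (adjusted p = 0.0043) and Hsbp1l1 by 2.11 ± 0.57 (adjusted p = 0.007). Without eyes replicate 1 H60c, Ephx3 and AI661453 were not called (0.96, 0.97 and 0.80), and without bladder replicate 2 neither H60c nor Hsbp1l1 was (limma adjusted p = 0.148 and 0.0609). Hsbp1l1, H60c and Ephx3 were also not called with the processed signals or the table. With median centring in place of loess, H60c and AI661453 lost their call, at 0.80 and 0.74 (limma adjusted p = 0.196 and 0.157).

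Pdc, which encodes phosducin of photoreceptors, had 6.94 on both eye arrays and was at least 3419-fold higher in eyes than in bladder (limma adjusted p = 2.3e-16). It was among the 56 because the rule set eyes aside: it had 0.57 and 0.56 in stomach, 0.05 and -0.16 in skin, where 1 of the 2 arrays was well above background, and no more than -0.00 on the other 22 arrays. Sag, another photoreceptor gene, had 4.86 and 4.98 in eyes, and 6 of 7 lens crystallin probes had 3.84 or more on both eye arrays.

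Among the 7 genes higher in bladder were Nipal4 and Sprr1a. Nipal4 had 5.43 and 5.75 in bladder and -0.17 and -0.61 in eyes, a difference of -5.98 ± 0.42 (SE, limma adjusted p = 1.8e-09), and of -6.64 in Cy3 alone. Sprr1a had 3.24 and 3.26 in bladder and -1.55 and -1.99 in eyes, a difference of -5.02 ± 0.39 (adjusted p = 7.3e-09), and of -7.46 in Cy3 alone, which is 176-fold. Both bladder arrays lay above those of skin and stomach for Sprr1a, where Cy3 was 36549 and 39770 units and Cy5 8991 and 9919. Mir205hg had 3.31 and 3.21 in bladder and 1.53 and 1.40 in eyes, a difference of -1.79 ± 0.41 (limma adjusted p = 0.0019). Tlcd3a (2310047D13Rik) differed by -1.39 ± 0.24 (adjusted p = 0.00017), 4932411K12Rik by -1.83 ± 0.13 (adjusted p = 2.5e-09) and Ncmap by -1.54 ± 0.46 (adjusted p = 0.014). Ncmap was not called without eyes replicate 1, bladder replicate 1 or bladder replicate 2, and neither Ncmap nor Mir205hg with the processed signals or the table.

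2310057J18Rik was read on few arrays and unevenly. Its bladder arrays had 8.33 and 5.44, with Cy3 of 160196 and 2044 units, and its stomach arrays 3.56 and 0.07, with 378 and 55.8 units, while no array of skin or eyes exceeded 0.09. Cy3 was at least 313-fold higher in bladder than in eyes, but at least 38.3-fold with the dimmer bladder array alone, an alternative added after seeing the data. Bladder was the only tissue with both arrays well above background. The gene was therefore tested only through the tissue where it was high, and its call is not read. Its place among the 56 rests on stomach replicate 1 and on values near background in skin.

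Dst had 3.28 and 2.43 in eyes and 3.35 and 3.42 in bladder, a difference of -0.53 with a 95% interval from -1.21 to 0.16, and was not called. Lce1a2, well above background on all 4 arrays, had an interval from -0.97 to -0.12. Abca12 was not well above background on any of these arrays, and Pinlyp not on 1 bladder array, so no difference is given for them.

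**Figure D5:**
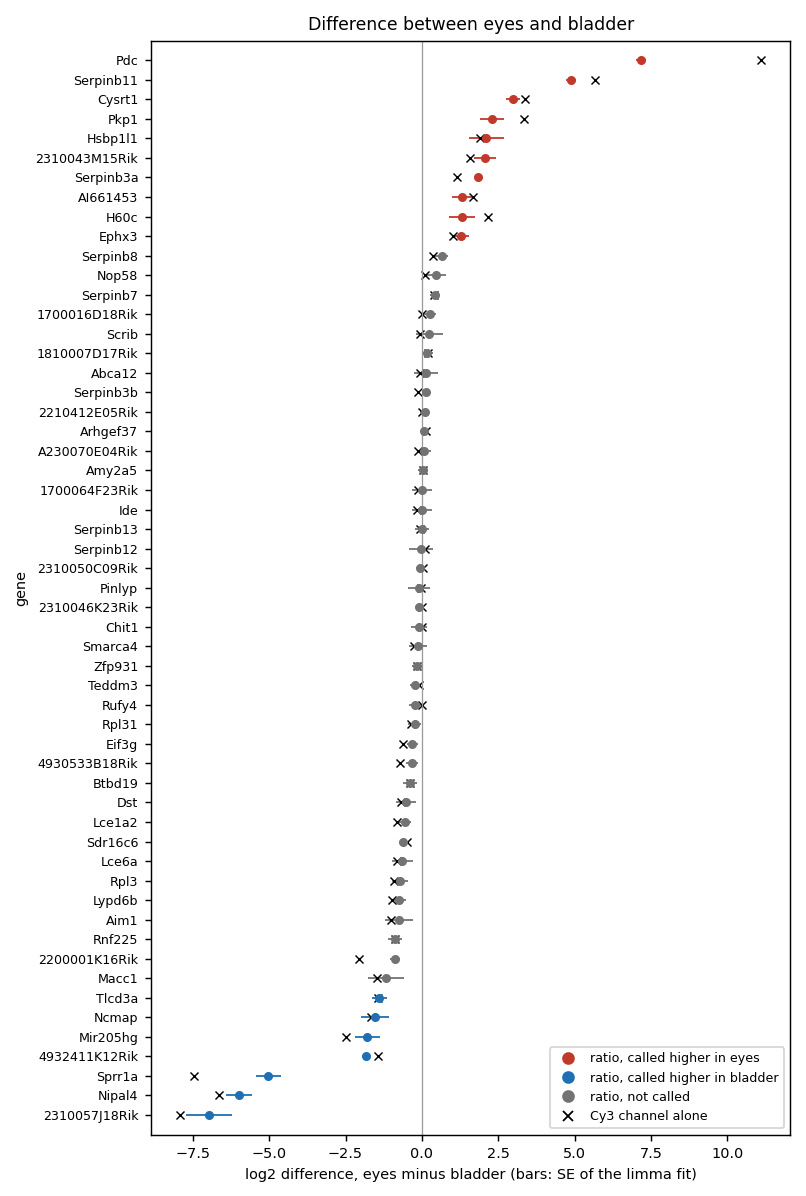
Difference between eyes and bladder (x axis, log2) for the 55 genes tested (y axis, sorted), with circles and SE bars for the ratio, red where called higher in eyes, blue where called higher in bladder and grey where not called, and crosses for the Cy3 channel alone. Pdc and Serpinb11 lie at the right end (7.16 and 4.89) and 2310057J18Rik, Nipal4 and Sprr1a at the left (-6.97, -5.98 and -5.02). The points of Pdc, Serpinb11, Serpinb3a and 2310043M15Rik, not well above background in bladder, and of 2310057J18Rik, not so in eyes, are fitted values for which only the bounds in the text hold, so their order is not read.

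The other genes of squamous epithelium that had a symbol were few, 1 to 12 probes for each of 10 lists. All 3 probes of the cornified envelope list were among the 56, as was the 1 desmosome probe. Of 12 keratin and keratin-associated probes none was among the 56, and Krt10, a keratin of the upper epidermis that the rule leaves out, had 5.54 and 5.34 in skin and 4.64 and 4.66 in stomach, a difference of 0.79 (limma adjusted p = 0.005) that is under the limit of 1. Serpinb3c, also left out, had 0.89 and 0.47 in skin and 6.50 and 6.53 in stomach, and Serpinb2 5.79 and 5.76 and then 4.03 and 4.61. Of 3 epithelial transcription factors tested, Tfap2b (Tcfap2b) was called higher in skin at 6.11 and Elf3 higher in stomach at -3.46. Both interleukin-1 family receptors tested, Il1r2 at 1.60 and Il1rl2 at 2.86, were called higher in skin. In the barrier lipid list, the carboxylesterases Ces1h (2310039D24Rik) and Ces2g (2210023G05Rik) were called higher in stomach at -3.96 and -3.43, and Abca12 was not called.

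For 3 of the genes a second probe, absent from the authors' table, read the same gene with another sequence on the same arrays. That of Rnf225 had 3.11 and 3.16 in skin and 2.48 and 2.68 in stomach, and at most 0.69 on the 22 arrays of the 11 other tissues. That of Nipal4 had 3.42 and 3.22 in skin, 3.08 and 3.11 in stomach and 3.62 and 3.94 in bladder, with 0.03 and -0.14 in eyes and at most 1.53 on the 22 arrays. That of Tlcd3a had 0.85 and 0.84 in skin and 1.23 and 1.54 in stomach, and 0.86 on 1 large intestine array. The second probes of Rnf225 and Nipal4 kept skin and stomach apart from the 11 tissues, and that of Tlcd3a did not for skin. Across the 30 arrays, which are shared by both probes, Pearson's r was 0.96 for Rnf225, 0.96 for Nipal4 and 0.92 for Tlcd3a.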

How the data were processed

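Spot files of 30 two-colour arrays were used, made by the authors with Agilent Feature Extraction 9.5.1.1. They hold deposited spot intensity values in scanner units (mean signal, local background, and a processed signal) and quality flags. The authors also deposited a table of log10 values for 25030 probes, whose columns, regressed on the scanner software's signals, had slopes of 0.998 for log10 Cy3 and -0.996 for how far Cy5 departed from its average, so it holds a Cy3 level adjusted for the reference. This table chose the genes, by a rule given in the report. The genes, gene lists and markers were chosen with earlier results of these data known. A further keratinocyte marker is not reported here. Symbols came from the probe lists of the study, and current names from RefSeq (GRCm38.p6).

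Here the background was corrected by normexp (offset 50), each array was normalised by loess, control spots and 475 outlier spots were left out, and spots of a probe were averaged as log2(Cy3/Cy5). Median Cy3 signal was 85.7 to 175 units per array, and 53.9% to 76.9% of probes were well above background. Apart from control spots, no spot was saturated in Cy3, whereas saturation in Cy5 was not counted. The number of arrays limits the precision. A probe was tested where at least 1 tissue had both its arrays well above background, which left 21026, and limma 3.58.1 (R 4.3.3) fitted a mean for every tissue to the 30 arrays jointly (15 residual degrees of freedom). An adjusted p is limma's with Benjamini-Hochberg adjustment over all probes tested, two-sided. "At least" folds compare Cy3, after loess and Aquantile, with the higher of the lowest signal above background on an array and the probe's own. The fits were tested on simulated data.

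Named were the 10 largest gaps, up to 8 calls in each direction of a comparison with the largest differences, members of the lists, and 3 genes on each side of the limit; other genes were named after their values were seen. Same-numbered arrays were not paired by the labels: deviations from the tissue means correlated by -0.25 to 0.34 over 105 pairs of tissues (median 0.05), so replicate number was not used as a block. This says nothing of slide or scan day, within which the consensus correlation was 0.69 and 0.59. The main fit had no block for these either, so its SE and adjusted p take arrays of the same slide as independent. Alternatives were other normalisations, filters and blocks and leaving out each array.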

Additional observations from a re-analysis of the deposited data

How the results depend on the processing

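The counts of called genes moved by over 1.5 times in 4 cases. Genes called higher in skin than in stomach numbered 9, but 3 with the signal processed by the scanner software, 3 with the authors' value table and 4 with median centring in place of loess, and genes called higher in bladder than in eyes numbered 7, but 13 without a threshold on the size of the difference. With the processed signals and the table, Sdr16c6 was at -0.0314 and -0.0316 in place of 1.26 between skin and stomach, and Serpinb12 at 0.15 and 0.15 in place of -1.95, none of them called. The cause of these changes was not tested. Median centring moved the median of all probes between eyes and bladder to -0.14 from 0.00. Without single arrays the counts were 8 to 9 for skin, 7 to 10 for stomach, 7 to 11 for eyes and 6 to 8 for bladder. With the replicate number as a block the counts stayed at 9 and 9 for skin and stomach and at 10 and 7 for eyes and bladder, and pairing changed no count. With slide as a random block they were 8, 7, 7 and 5, and as a fixed block 10 and 9 for skin and stomach, and it could not be fitted for eyes and bladder. Skin and stomach arrays lay on different slides. Over 1416 recomputed differences of called genes, 1353 were called in the same direction, 59 were in the same direction but not called and 4, those above, turned.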

Other observations

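Single arrays of other tissues rose for a few of the genes. Fat replicate 1 had 2.28 for Serpinb12, 1.83 for Mir205hg and 2.64 for Macc1, where fat replicate 2 had 0.04, -0.21 and -0.18. Markers of other tissues were also higher on fat replicate 1: the lens genes Crygc and Cryga had 6.36 and 2.98 there and -0.06 and -0.03 on replicate 2, and the keratinocyte marker Serpinb5 2.16 and -0.01. Of the 7 lens probes the other 5 had at most 1.03 on fat replicate 1. Their part in these values was not tested. Large intestine replicate 1 had 2.83 for Abca12 and 1.90 for Macc1 against 0.68 and 0.42 on replicate 2, whereas Sprr1a and Nipal4 were higher on replicate 2 (1.19 and 3.91 against 0.18 and 2.95). Macc1, named for its part in metastasis of colon cancer, had 4.37 and 4.20 in skin, 5.86 and 5.80 in stomach, 4.12 and 4.26 in bladder and 3.67 and 3.60 in lung.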
